A study of Mus musculus with 8 samples.

Results

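Potassium channel subunits were examined across the basal ganglia (BG) and cortex (Ctx) of mouse telencephalon, by every probe set whose single annotated symbol begins with Kcn, followed by letters and a closing number. Kcne2, a choroid plexus marker, was left out. The rule gave 157 probe sets for 79 genes, out of 18193 genes with a probe set of their own on the array. Each gene was represented by its probe set with the highest mean log2 signal over the 8 arrays, and 53 of the 79 genes were bright enough to be tested. The study profiled the telencephalon of animals with mutated Dlx1/2, a pair of neighbouring homeobox genes needed for the ventral forebrain. Its 4 groups of 2 arrays were BG -/-, BG +/-, Ctx -/- and Ctx +/-, so that heterozygotes stood in for controls and every animal carried at least 1 mutated copy. The labels give no age, strain or allele, leave it unsaid whether the 2 arrays of a group are 2 animals (p-values then cover the spread between arrays, which may be technical), and also name blood and adrenal medulla as the source.

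Potassium channels let potassium ions leave, or in some cases enter, the cell and so set its resting potential, shape the action potential and limit repetitive firing. Voltage-gated pore subunits open on depolarisation, and electrically silent subunits form no working channel alone but join other pore subunits and change how they gate. Auxiliary subunits alter the trafficking or gating of voltage-gated pores. Inward rectifiers and two-pore-domain channels carry current near rest, and calcium- or sodium-activated channels open as those ions accumulate. In the developing telencephalon many, but not all, of these genes come on as neurons mature, in mixtures that differ between cell types.

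The mutated genes and the regional markers were read first. Dlx1 was at 3.67 and 15.5 signal units in BG -/-, against 1232 and 1237 in BG +/-, and at 2.42 and 1.74 in Ctx -/-, against 138.5 and 136.7 in Ctx +/-. Dlx2 was at 8.56 and 8.68 in BG -/-, against 358 and 287 in BG +/-, and at 12.01 and 6.69 in Ctx -/-, against 55.3 on both arrays of Ctx +/-. Whether these probe sets fall inside the mutated stretch was not checked. Of 9 ventral telencephalon markers tested 7 were higher and 1 lower in BG than in Ctx in -/- and all 9 were higher in +/-, and all 8 cortex markers tested were lower in BG in both genotypes. None of 5 adrenal medulla markers tested changed with genotype, and 1 was higher in BG in each genotype. The sex-linked genes split by genotype: Xist was at 2340 to 2519 on all 4 -/- arrays and at 34.2 to 67.5 on all 4 +/- arrays, and Eif2s3y, on chromosome Y, was at 1.20 to 6.46 on the -/- arrays and at 242 to 448 on the +/- arrays. Sex and genotype therefore cannot be told apart here. Of the 79 genes only Kcnd1 lies on X, with 3.29 and 23.3 in BG -/-, against 27.7 and 35.6 in BG +/-, and no call in any comparison. In bulk tissue such as this, fewer cells of a type and less RNA per cell cannot be told apart.

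In the basal ganglia, loss of Dlx1/2 went with higher signals of 3 potassium channel genes and a lower signal of 1. Kcnv1, Kcnq3 and Kcnd2 rose and Kcns2 fell in BG -/-, and the other 49 genes tested did not pass. Kcnv1 and Kcns2 are both electrically silent subunits that combine with the delayed rectifier pores of the Kcnb group. Kcnq3 is a pore subunit of the M-current, which brakes repetitive firing, and Kcnd2 is a pore subunit of the A-type current, which delays the first spike.

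Kcnv1 had the largest change on the main probe sets. It was at 70.8 and 61.9 in BG -/-, against 13.5 and 14.2 in BG +/-, so both mutant arrays stood far above both heterozygous ones. Its log2 change was 1.46 ± 0.12 (SE, limma with Benjamini-Hochberg adjustment over all probe sets, adjusted p = 0.00377). All changes are on the scale of log2(signal + 16), on which the change of a dim gene is understated. In cortex Kcnv1 was at 70.6 and 62.4 in Ctx -/-, against 53.9 and 57.7 in Ctx +/-, close to its signal in BG -/-. A further probe set of Kcnv1 also rose in BG, with 43.9 and 28.2 in -/-, against 15.6 and 15.0 in +/-, a log2 change of 0.72 ± 0.17 (limma adjusted p = 0.0460). The third did not pass, at -0.44 ± 0.36 (limma adjusted p = 0.467), with 31.9 and 7.85 in BG -/-, against 22.0 and 39.7 in BG +/-. Averaged over its probe sets, Kcnv1 no longer passed, at 0.58 (limma adjusted p = 0.108), and Kcns2 was the 1 gene called. Only 1 of the 2 probe sets of Kcns2 was tested, so averaging could not alter its change.

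Kcns2, the other silent subunit, went the opposite way. It was at 40.3 and 54.0 in BG -/-, against 99.4 and 144 in BG +/-, and the groups did not overlap. Its log2 change was -1.11 ± 0.22 (limma adjusted p = 0.0283). In cortex it was low in both genotypes, at 24.4 and 16.9 in Ctx -/-, against 31.0 and 22.2 in Ctx +/-.

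Kcnq3 was at 206 and 252 in BG -/-, against 131 and 144 in BG +/-, a log2 change of 0.67 ± 0.14 (limma adjusted p = 0.0311). Its dimmer probe set did not follow, at -0.22 ± 0.18 (limma adjusted p = 0.480). Kcnd2 was at 513 and 555 in BG -/-, against 376 and 326.5 in BG +/-, a log2 change of 0.58 ± 0.13 (limma adjusted p = 0.0415). Of its 2 other probe sets tested, neither passed, at 0.33 ± 0.14 and 0.26 ± 0.21 (limma adjusted p = 0.165 and 0.464). For both genes the mutant arrays lay above the heterozygous ones on the main probe set. Kcnv1 alone of the 4 genes passed when any single BG array was left out, or either Ctx -/- array, which lends the model part of its spread. Without 1 BG array the adjusted p of Kcnd2 was 0.0961 to 0.184, that of Kcnq3 0.0836 to 0.154 and that of Kcns2 0.0606 to 0.144 (limma), and that of Kcnv1 0.0320 to 0.0464. Without 1 Ctx -/- array it was 0.0757 for Kcnd2, 0.0648 for Kcnq3 and 0.0522 for Kcns2.

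**Figure D1:**
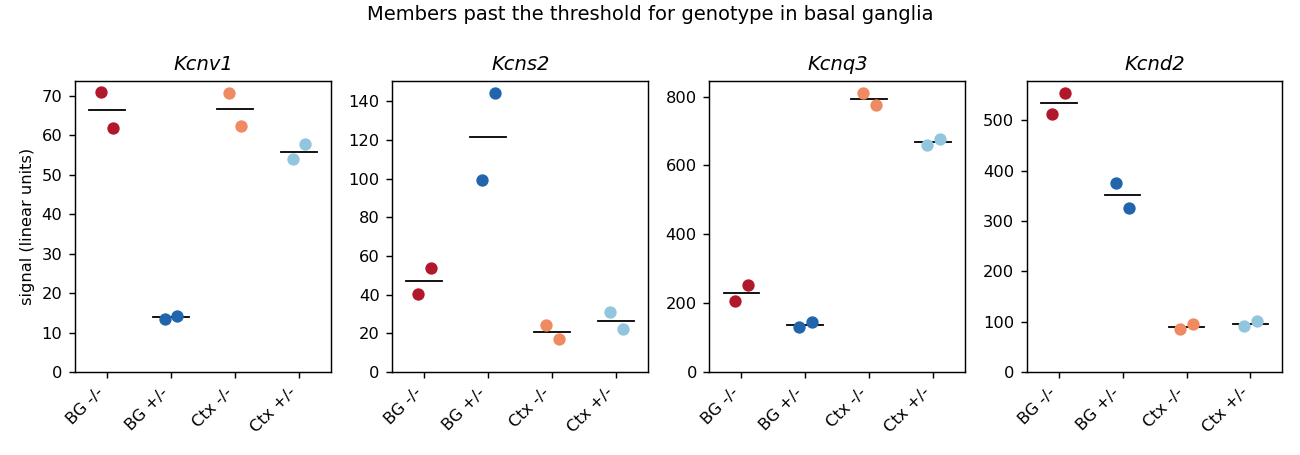
Signal (linear units, axis from 0) of the 4 genes that passed for genotype in basal ganglia, with 1 point per array, a bar at the mean of the 2 arrays, and groups in the order BG -/-, BG +/-, Ctx -/- and Ctx +/-. Kcnv1 lies at 13.5 and 14.2 in BG +/- and above 50 in the other groups, while Kcns2 is highest in BG +/-.

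The 4 calls are 7.55% of the potassium channel genes tested, beside 7.82% of all 13627 genes called in BG, 4.76% as rises and 3.05% as falls. The share among the channel genes is thus near that of all genes. Their median log2 change was 0.03, beside -0.08 over all genes. At an unadjusted p under 0.05 there were 12 of 53, beside 26.9% of all genes.

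By family, assigned from the gene symbol, 2 of 20 voltage-gated pore subunits rose, and 1 of 4 electrically silent subunits rose and 1 fell. None of 7 auxiliary subunits, 7 inward rectifiers, 7 two-pore-domain channels or 8 calcium- or sodium-activated channels passed in limma, although 1, 1, 0 and 3 of them had an unadjusted p under 0.05. Nearest to the threshold among these was Kcnj11, the pore of the ATP-sensitive potassium channel. It was at 499.6 and 420 in BG -/-, against 619.7 and 674 in BG +/-, a log2 change of -0.48 ± 0.13 (limma adjusted p = 0.0657). Its groups did not overlap, and it passed when the lowest 50% of probe sets were left out, with an offset of 64 or with a variance trend. Kcnmb4, a neuronal beta subunit of the large-conductance calcium-activated channel, was at 277.5 and 225 in BG -/-, against 351 and 326 in BG +/-, with a log2 change of -0.41 ± 0.14 (limma adjusted p = 0.115). Kcne4, an auxiliary subunit with 1 membrane span, was at -0.55 ± 0.22 (limma adjusted p = 0.167), and Kcnk5, an acid-sensitive two-pore-domain channel, at 0.46 ± 0.27 (limma adjusted p = 0.309).

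Some genes passed in BG on a probe set other than the one that represents them. The 53 genes had 95 probe sets tested in all. Over the whole array, 2366 of 31526 probe sets rose in BG and 704 fell. Kcnip4, a calcium-binding partner of the A-type pores, was at 62.2 and 67.0 in BG -/-, against 26.7 and 34.8 in BG +/-, on such a probe set, a log2 change of 0.79 ± 0.13 (limma adjusted p = 0.0187). On its main probe set it was at 0.38 ± 0.27 (limma adjusted p = 0.405). Kcnip1, of the same group, rose by 0.68 ± 0.16 on a further probe set (limma adjusted p = 0.0497), against -0.02 ± 0.14 on its main one. Kcnma1, the pore of the large-conductance calcium-activated channel, rose by 0.86 ± 0.19 on a further probe set (limma adjusted p = 0.0363), against 0.11 ± 0.15 on its main one. Kcna6, a delayed rectifier pore, rose by 0.74 ± 0.17 on a further probe set (limma adjusted p = 0.0424), against -0.09 ± 0.15 on its main one. Whether these probe sets measure different transcript ends or isoforms was not examined here.

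**Figure D2:**
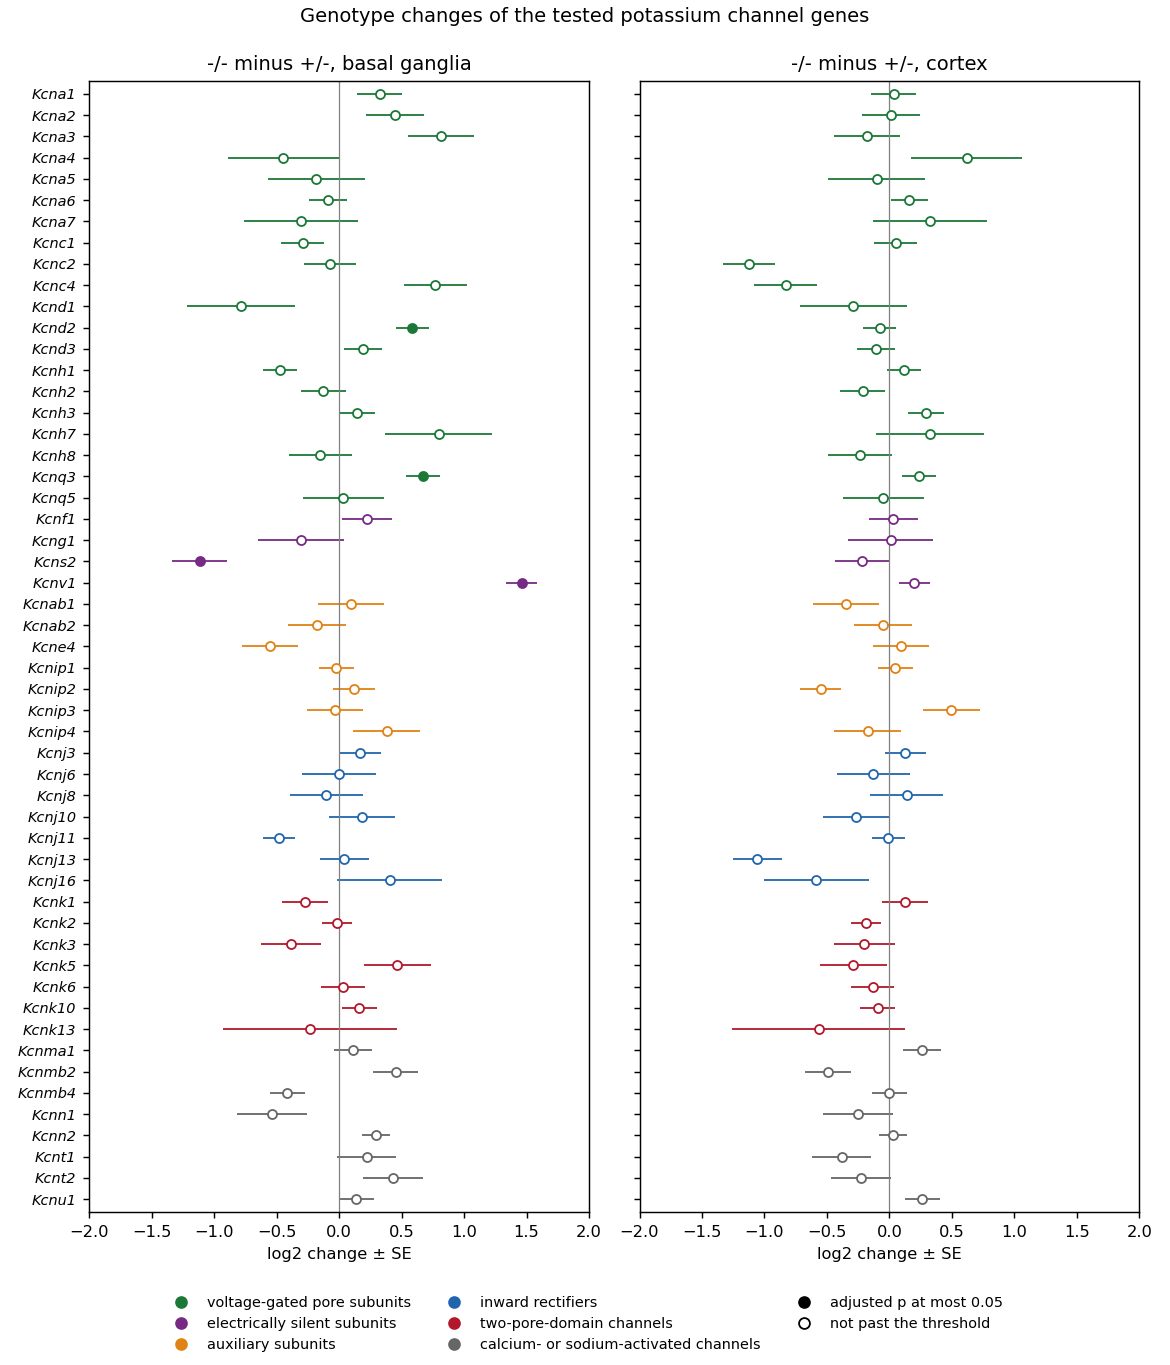
Log2 change (± SE, on the log2(signal + 16) scale) of -/- minus +/- for the 53 genes tested, in basal ganglia on the left and cortex on the right, coloured by family. Filled points passed the threshold, which 4 genes did in basal ganglia and none in cortex.

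Markers of other cells moved with genotype in BG as well. Of 12 neuron maturation genes 4 rose and none fell in BG -/-, beside 4.76% and 3.05% of all genes, with a median log2 change of 0.26. Their summed signal was 22430 and 22820 in BG -/-, against 20050 and 20240 in BG +/-. It was 21790 and 21830 in Ctx -/-, against 19020 and 19410 in Ctx +/-. The bright members differed: Dcx was at 4993 and 4617 in BG -/-, against 2599 and 2426 in BG +/-. Tubb3 was lower without passing, at 3504 and 3278 against 4744 and 4507, as was Stmn2, at 4618 and 4589 against 5310 and 5181. Of 9 radial glia genes 2 rose and none fell, with summed signals of 21290 to 22070 in BG -/-, against 21970 to 22640 in BG +/-. Of 9 ventral telencephalon markers 5 fell, with summed signals of 4077 and 4112 in BG -/-, against 6694 and 6913 in BG +/-. Of 9 endothelial and mural genes tested 1 rose, of 5 red blood cell genes tested 1 fell, and none of 9 microglia genes passed. Of 5 choroid plexus markers 1 rose, Otx2, and of 8 cortex markers 1 fell, Fezf2, with summed cortex signals of 1883 and 1949 in BG -/-, against 1737 and 1770 in BG +/-. The part of these cell types in the potassium channel changes was not tested.

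In the cortex no potassium channel gene of the 53 tested passed for genotype (limma with Benjamini-Hochberg), beside 0.205% of all genes. At an unadjusted p under 0.05 there were 5 of 53, beside 8.60% of all genes, and their median log2 change was -0.08, beside -0.03 over all genes. Kcnc2, a pore subunit of fast-spiking neurons, and Kcnj13, an inward rectifier abundant in choroid plexus, had the smallest p on the main probe sets. Kcnc2 was at 23.5 and 10.8 in Ctx -/-, against 52.15 and 57.7 in Ctx +/-, a log2 change of -1.12 ± 0.21 (limma adjusted p = 0.168). Kcnj13 was at 8.04 and 9.12 in Ctx -/-, against 30.4 and 40.5 in Ctx +/-, a log2 change of -1.06 ± 0.20 (limma adjusted p = 0.168). For both genes the genotypes did not overlap, yet neither passed over the whole array.

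Choroid plexus and ventral telencephalon markers differed between the same Ctx arrays. Ttr was at 1.11 and 0.701 in Ctx -/-, against 11630 and 13610 in Ctx +/-, and the summed signal of the 6 choroid plexus markers measured was 31.2 and 87.3 in Ctx -/-, against 12060 and 13950 in Ctx +/-. Of 5 of them tested 2 fell, Ttr and Kcne2. Of 9 ventral telencephalon markers 2 fell, Gad1 and Gad2, which make the transmitter GABA, and the list summed to 594.7 and 628 in Ctx -/-, against 949.9 and 1020 in Ctx +/-. Gad1 was at 10.1 and 20.35 in Ctx -/-, against 349.9 and 338 in Ctx +/-. The part of these cells in the Kcnj13 and Kcnc2 values was not tested.

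The best-placed members of the other families in Ctx were further from the threshold. They were Kcnip2, a partner of the A-type pores, at -0.55 ± 0.17 (limma adjusted p = 0.359), and Kcnmb2, a beta subunit of the large-conductance channel, at -0.49 ± 0.18 (adjusted p = 0.456). Kcnv1 was at 0.20 ± 0.12 (limma adjusted p = 0.658) and Kcnk2, a mechanically gated two-pore-domain channel, at -0.19 ± 0.12 (adjusted p = 0.670). Of the genes called in BG, Kcnq3 was at 811 and 774 in Ctx -/-, against 660.1 and 678 in Ctx +/-, and Kcnd2 at 85.3 and 94.9 in Ctx -/-, against 91.05 and 101 in Ctx +/-. Neither passed there. A further probe set of Kcnk10, a two-pore-domain channel, was nearer the threshold than any main one and is named after its values were seen. It was at 166 and 164.5 in Ctx -/-, against 72.2 and 86.6 in Ctx +/-, a log2 change of 0.93 ± 0.12 (limma adjusted p = 0.0614), beside -0.09 ± 0.14 on its main probe set.

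Whether the genotype effect differed between the regions was tested directly. Kcnv1 alone of the 53 genes passed, its log2 change being greater in BG than in Ctx by 1.26 ± 0.18 (limma adjusted p = 0.0471), beside 0.338% of all genes called. That call held in 2 of 17 alternatives, over which the adjusted p ranged from 0.0126 to 0.494, and it was lost when any 1 of the 8 arrays was left out, with adjusted p of 0.0707 to 0.192. The difference was 0.70 ± 0.24 on the further Kcnv1 probe set that rose in BG and -0.80 ± 0.51 on the third (limma adjusted p = 0.215 and 0.456). For the other genes called in BG the effects were not shown to differ, with adjusted p of 0.155 for Kcnd2, 0.218 for Kcns2 and 0.313 for Kcnq3. The next smallest belonged to Kcnc4, a voltage-gated pore subunit, at 1.60 ± 0.36 (limma adjusted p = 0.102).

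Many more potassium channel genes passed between regions than between genotypes. In -/-, 13 of 53 were higher and 3 lower in BG than in Ctx, and in +/-, 15 were higher and 6 lower. In -/- the 16 calls are 30.2% of those tested, beside 18.7% of all genes, with 24.5% higher beside 11.4% and 5.66% lower beside 7.25%. In +/- the 21 calls are 39.6%, beside 24.8% of all genes, with 28.3% higher beside 14.0% and 11.3% lower beside 10.7%. The median log2 difference of BG over Ctx among the channel genes was 0.45 in -/- and 0.43 in +/-, beside 0.06 and 0.11 over all genes. Centring each array on its median lowers the median difference over all probe sets to -0.21 in -/- and -0.07 in +/-. Of the 53 channel genes, it gave 12 higher and 5 lower in -/-, and 10 higher and 7 lower in +/-. Of all 31526 probe sets, it gave 1937 higher and 5384 lower in -/-, and 2234 higher and 4829 lower in +/-. Leaving out 1 array gave 10 to 19 calls in -/-, the fewest without BG -/- replicate 3, and 11 to 20 in +/-, with 11 without Ctx +/- replicate 3, 13 without BG +/- replicate 3 and 14 without BG +/- replicate 2.

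The regional comparisons in -/- and in +/- set different arrays against each other, but take their spread from 1 fit over all 8 arrays, so their calls are not independent. The same 10 genes passed in both with the same direction, which is 62.5% of those called in -/- and 47.6% of those called in +/-, and none passed in opposite directions. Over all genes, 1517 passed in both with the same direction, 59.6% of those called in -/- and 44.9% of those called in +/-, so the overlap among the channel genes is near that of all genes. Of the 10 channel genes, 7 were higher in BG, Kcnd2, Kcnf1, Kcnh1, Kcnh3, Kcnh8, Kcnk3 and Kcnt1, and 3 were lower in BG, Kcnq3, Kcna1 and Kcnn2. Of the 10, 7 passed in both genotypes under every alternative that gave a value, and Kcnh8, Kcnk3 and Kcnt1 did not. Kcnf1, Kcnh1 and Kcnn2 had 1 probe set tested each, so averaging probe sets could not alter their differences. Kcnf1 and Kcnh1 gave a value under 17 alternatives, not 18. In -/-, 6 calls were lost without at least 1 array, those of Kcna2, Kcnh8, Kcnip2, Kcnip4, Kcnk3 and Kcnt1, with an adjusted p of at most 0.195, 0.0938, 0.0743, 0.0898, 0.0790 and 0.0665 in that order (limma). In +/-, 11 were lost in this way. Those of Kcna4, Kcna6, Kcnc1, Kcnh8, Kcnj3 and Kcnj11 then had an adjusted p of at most 0.201, 0.113, 0.0875, 0.0900, 0.167 and 0.0954, and those of Kcnk1, Kcnk5, Kcnma1, Kcnt1 and Kcnu1 of at most 0.130, 0.0879, 0.117, 0.168 and 0.116.

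**Figure D3:**
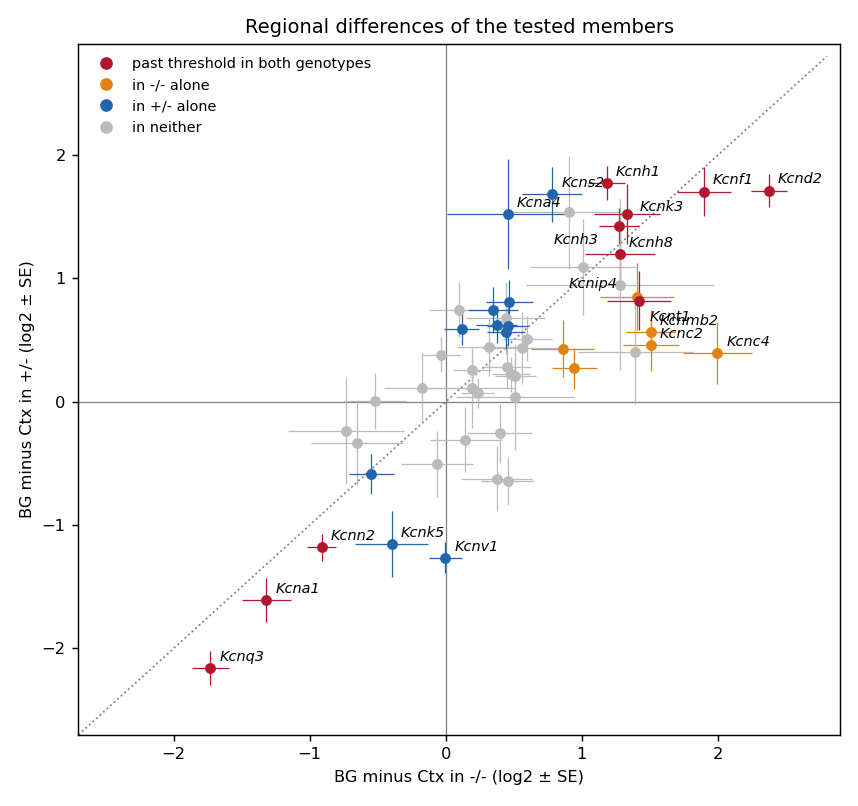
Log2 difference of BG minus Ctx (± SE) in -/- on the horizontal axis and in +/- on the vertical axis, with 1 point per gene tested and a dotted line where both are equal. Kcnd2 and Kcnq3 lie at the upper right and lower left ends, and Kcnv1 lies at 0.00 in -/- and at -1.27 in +/-.

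The RefSeq promoter table for GRCm38.p6 holds windows, from 250 bases before to 50 bases after a gene start, for 60 of the 79 genes. Windows it holds for genes that were higher in BG in both genotypes, those of Kcnd2, Kcnh1, Kcnh8 and Kcnf1, are shown. No window is shown for Kcnh3, Kcnk3 or Kcnt1, which were also higher in BG in both. The genes share this regional call, while for genotype in BG Kcnd2 alone of the 4 shown passed. Each CG dinucleotide is in capitals, read 5′ to 3′ along the gene.
Kcnd2, chr6:21215096-21215395, plus strand: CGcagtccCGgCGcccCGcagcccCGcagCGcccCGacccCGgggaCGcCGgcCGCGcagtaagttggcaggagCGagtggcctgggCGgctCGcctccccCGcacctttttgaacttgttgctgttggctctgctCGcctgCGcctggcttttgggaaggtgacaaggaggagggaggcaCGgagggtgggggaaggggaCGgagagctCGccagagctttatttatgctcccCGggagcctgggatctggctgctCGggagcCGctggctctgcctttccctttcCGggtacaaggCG
Kcnh1, chr1:192190527-192190826, plus strand: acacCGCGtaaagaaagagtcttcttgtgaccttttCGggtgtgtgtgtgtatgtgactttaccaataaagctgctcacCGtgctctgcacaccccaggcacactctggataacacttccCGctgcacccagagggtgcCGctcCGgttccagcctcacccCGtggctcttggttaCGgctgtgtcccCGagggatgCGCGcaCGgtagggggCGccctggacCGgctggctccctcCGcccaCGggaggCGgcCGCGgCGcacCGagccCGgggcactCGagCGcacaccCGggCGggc
Kcnh8, chr17:52602459-52602758, plus strand: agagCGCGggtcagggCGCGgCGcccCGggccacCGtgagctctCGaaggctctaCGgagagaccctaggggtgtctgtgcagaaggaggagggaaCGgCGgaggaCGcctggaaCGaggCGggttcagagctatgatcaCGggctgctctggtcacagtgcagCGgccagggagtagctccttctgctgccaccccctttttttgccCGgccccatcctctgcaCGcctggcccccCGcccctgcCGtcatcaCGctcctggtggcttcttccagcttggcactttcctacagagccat
Kcnf1, chr12:17176839-17177138, minus strand: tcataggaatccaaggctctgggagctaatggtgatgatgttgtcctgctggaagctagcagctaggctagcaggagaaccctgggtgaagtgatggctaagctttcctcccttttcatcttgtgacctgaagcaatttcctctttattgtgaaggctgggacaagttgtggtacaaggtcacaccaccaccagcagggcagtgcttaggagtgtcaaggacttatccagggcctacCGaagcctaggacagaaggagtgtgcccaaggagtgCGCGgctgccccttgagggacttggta
The first 3 are rich in CG, with 26, 27 and 21 CG dinucleotides and a GC content of 68.7%, 66.0% and 66.0%, while Kcnf1 has 3 and 53.0%. The median over all 32851 windows of the table is 7 CG dinucleotides and 52.7% GC. The motif TAATT, a common core of homeodomain sites, was searched on both strands and is in none of these 4 windows. It is in 27.0% of all windows and in 14 of 84 windows of potassium channel genes, which is 16.7%. A match or its lack in these windows is a description of the letters alone.

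Among the voltage-gated pores, Kcnd2 was bright and clearly higher in BG. It was at 513 and 555 in BG -/-, against 85.3 and 94.9 in Ctx -/-, a log2 difference of 2.37 ± 0.13 (limma adjusted p = 0.000254). In +/- it was at 376 and 326.5 in BG, against 91.05 and 101 in Ctx, a difference of 1.71 ± 0.13 (limma adjusted p = 0.000691). Both of its other probe sets tested were also higher in BG in each genotype, by 1.62 to 2.04. The ether-a-go-go gene Kcnh1 was at 62.65 and 57.3 in BG -/-, against 18.6 and 16.3 in Ctx -/-, and at 95.3 and 83.7 in BG +/-, against 12.5 and 17.5 in Ctx +/-. Its differences were 1.18 ± 0.14 in -/- and 1.77 ± 0.14 in +/- (limma adjusted p = 0.00289 and 0.000691).

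Both tested genes of the related ELK group were higher in BG too. Kcnh3 was at 178 and 174 in BG -/-, against 73.1 and 54.85 in Ctx -/-, and at 157 and 159.8 in BG +/-, against 51.65 and 46.4 in Ctx +/-, with differences of 1.27 ± 0.14 and 1.42 ± 0.14. Its 2 other probe sets tested did not pass in either genotype. Kcnh8 differed by 1.28 ± 0.25 in -/- and 1.20 ± 0.25 in +/- (limma adjusted p = 0.0189 and 0.0181).

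Kcnq3 and Kcna1 had the reverse pattern. Kcnq3 was at 206 and 252 in BG -/-, against 811 and 774 in Ctx -/-, a difference of -1.73 ± 0.14 (limma adjusted p = 0.000724). In +/- it was at 131 and 144 in BG, against 660.1 and 678 in Ctx, a difference of -2.16 ± 0.14 (limma adjusted p = 0.000373). Kcna1, a delayed rectifier pore of axons, was at 29.05 and 42.5 in BG -/-, against 101.8 and 123.5 in Ctx -/-, and at 22.9 and 27.3 in BG +/-, against 119.7 and 99.2 in Ctx +/-. Its differences were -1.32 ± 0.18 and -1.61 ± 0.18 (limma adjusted p = 0.00513 and 0.00215), and both of its other probe sets tested were also lower in BG in each genotype.

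On their main probe sets, Kcnc1, Kcnc2 and Kcnc4 of the Kcnc group passed in 1 genotype each. Kcnc2 was at 66.8 and 87.1 in BG -/-, against 23.5 and 10.8 in Ctx -/-, a difference of 1.51 ± 0.21 (limma adjusted p = 0.00538), and differed by 0.46 ± 0.21 in +/- (adjusted p = 0.154). Kcnc4 was at 59.6 and 77.8 in BG -/-, against 1.78 and 9.06 in Ctx -/-, a difference of 2.00 ± 0.25 (limma adjusted p = 0.00387). With an offset of 1 this became 3.71, above the 2.55 of Kcnd2. Kcnc1 passed in +/-, at 153 and 169.5 in BG, against 101.9 and 70.55 in Ctx, a difference of 0.81 ± 0.17 (limma adjusted p = 0.0185). A further Kcnc1 probe set was higher in BG in both genotypes, by 0.96 ± 0.15 in -/- and 0.54 ± 0.15 in +/- (limma adjusted p = 0.00861 and 0.0435). Another was higher in -/- alone, by 1.55 ± 0.42 (limma adjusted p = 0.0476), and was at -0.37 ± 0.42 in +/- (adjusted p = 0.546). The remaining Kcnc1 probe set passed in neither, at 0.27 ± 0.35 in -/- and 0.18 ± 0.35 in +/- (limma adjusted p = 0.624 and 0.739). On the main probe sets, a change of the regional difference with genotype did not pass for any of the 3. Of the Kcna group, Kcna4, an A-type pore, at 1.52 ± 0.44, and Kcna6, at 0.62 ± 0.15, were higher in BG in +/- (limma adjusted p = 0.0494 and 0.0274), and Kcna2 was higher in -/-, at 0.86 ± 0.23 (adjusted p = 0.0475). A further Kcna6 probe set was higher in BG in -/-, by 0.72 ± 0.17 (limma adjusted p = 0.0323). In +/-, where the main one passed, neither this probe set nor the remaining one did. They were at 0.12 ± 0.17 and -0.12 ± 0.17 there (limma adjusted p = 0.645 and 0.642). Kcna4 rested on 37.0 and 91.4 in BG +/-, against 21.4 and 2.51 in Ctx +/-.

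Of the silent subunits, Kcnf1 was far higher in BG, at 76.5 and 87.9 in BG -/-, against 5.73 and 16.05 in Ctx -/-, and at 63.35 and 73.2 in BG +/-, against 10.4 and 9.28 in Ctx +/-. Its differences were 1.89 ± 0.20 in -/- and 1.70 ± 0.20 in +/- (limma adjusted p = 0.00201 and 0.00243). Kcns2 was at 0.78 ± 0.22 in -/- (limma adjusted p = 0.0539) and was higher in BG in +/-, by 1.68 ± 0.22 (adjusted p = 0.00357). For Kcnv1 the regions did not differ detectably in -/-, at 0.00 ± 0.12 (limma adjusted p = 0.990), while it was lower in BG in +/-, at -1.27 ± 0.12 (adjusted p = 0.00140). The BG +/- arrays enter both the genotype and the regional values of these 2 genes, which are therefore not separate evidence. Kcns1, another silent subunit, was too dim to be tested, at 26.7 and 34.8 in BG -/-, against 1.97 and 2.27 in Ctx -/-, and at 13.35 and 21.5 in BG +/-, against 3.09 and 2.03 in Ctx +/-.

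Among auxiliary subunits 2 of 7 were higher in BG in -/-, Kcnip4 at 1.40 ± 0.27 and Kcnip2 at 0.94 ± 0.17 (limma adjusted p = 0.0165 and 0.0128), and none passed in +/-, where 2 had an unadjusted p under 0.05. Further probe sets of this family did pass, as seen after their values were known. In +/-, 2 of Kcnip4 were higher in BG, by 1.29 ± 0.19 and 0.57 ± 0.13 (limma adjusted p = 0.00564 and 0.0251), and 1 of Kcnip1 was lower, at -1.03 ± 0.16 (adjusted p = 0.00671). Of Kcnab2, a beta subunit of Kcna channels, 1 was higher in BG by 1.004 ± 0.21 in -/- and 0.71 ± 0.21 in +/- (limma adjusted p = 0.0207 and 0.0483), while its main probe set did not pass. Among inward rectifiers none of 7 passed in -/-. In +/-, Kcnj3, a G protein-gated pore, was lower in BG, at -0.59 ± 0.16, and Kcnj11 was higher, at 0.59 ± 0.13 (limma adjusted p = 0.0425 and 0.0204). Kcnj3 had 3 probe sets tested, of which the main one alone is given here. Its difference in +/- ranged from -0.79 to -0.23 over the alternatives, which include the mean of all probe sets. Kcnj11 held between 420 and 426 on all 4 Ctx arrays and was at 499.6 and 420 in BG -/-, against 619.7 and 674 in BG +/-.

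Of 7 two-pore-domain channels, Kcnk3, an acid-sensitive leak channel, was at 26.0 and 37.8 in BG -/-, against 2.71 and 3.01 in Ctx -/-, and at 32.7 and 63.3 in BG +/-, against 6.64 and 4.76 in Ctx +/-. It was higher in BG in both, by 1.33 ± 0.24 and 1.52 ± 0.24 (limma adjusted p = 0.0142 and 0.00687). Kcnk1, a weak inwardly rectifying leak channel, was higher in BG in +/-, at 0.74 ± 0.18 (limma adjusted p = 0.0296), and Kcnk5 was lower, at -1.15 ± 0.27 (adjusted p = 0.0241).

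Among 8 calcium- or sodium-activated channels, Kcnn2, a small-conductance calcium-activated pore, had replicates close together. It was at 93.8 and 93.9 in BG -/-, against 192 and 189.9 in Ctx -/-, and at 74.5 and 72.5 in BG +/-, against 184 and 189 in Ctx +/-. Its differences were -0.91 ± 0.11 and -1.18 ± 0.11 (limma adjusted p = 0.00314 and 0.00114). Kcnt1, a sodium-activated pore, was at 103 and 106 in BG -/-, against 26.6 and 31.7 in Ctx -/-, and at 92.7 and 82.6 in BG +/-, against 60.1 and 29.3 in Ctx +/-, with differences of 1.42 ± 0.24 and 0.82 ± 0.24 (limma adjusted p = 0.0107 and 0.0484). Kcnmb2 was higher in BG in -/-, by 1.50 ± 0.18 (limma adjusted p = 0.00330), and was at 0.56 ± 0.18 in +/- (adjusted p = 0.0658). Kcnma1 at 0.61 ± 0.15 and Kcnu1 at 0.57 ± 0.14 were higher in BG in +/- (limma adjusted p = 0.0304 and 0.0287). Kcnu1 is known as a sperm channel and was placed in this family by its symbol alone. A further Kcnma1 probe set was higher in BG in both genotypes, by 0.89 ± 0.19 in -/- and 0.99 ± 0.19 in +/- (limma adjusted p = 0.0221 and 0.0120). Kcnma1 had 5 probe sets tested, and the others are not given here. Over the alternatives, which include the mean of all probe sets, its difference in +/- ranged from 0.20 to 0.76.

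**Figure D4:**
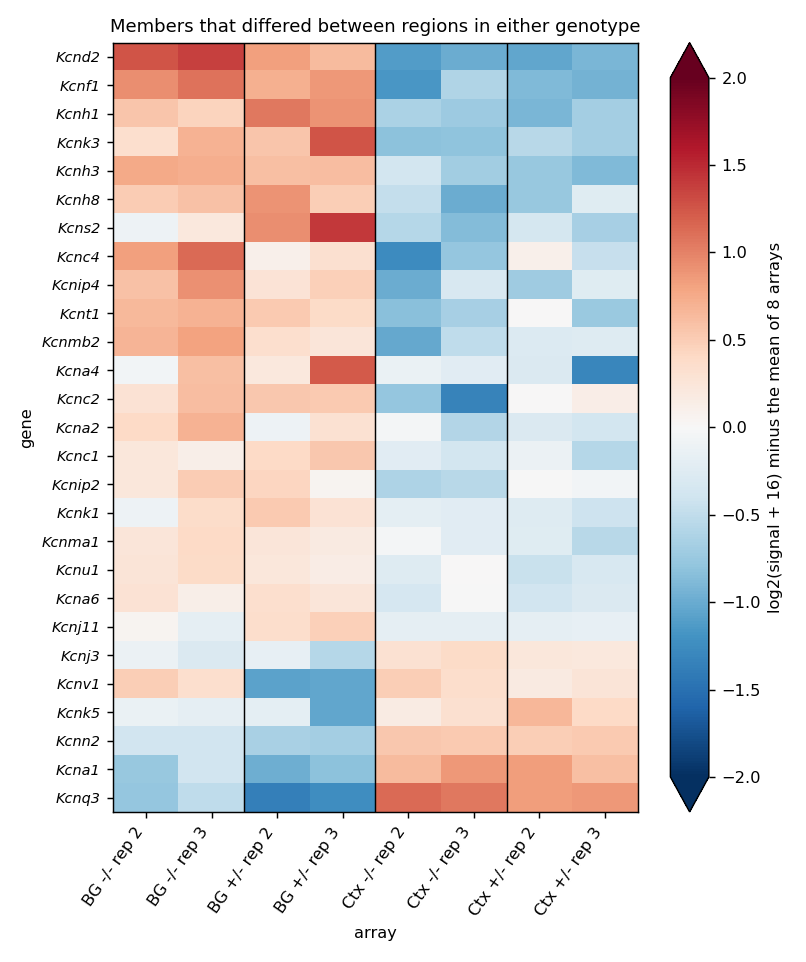
Log2(signal + 16) of each array minus the mean of the 8 arrays, for the 27 genes that differed between the regions in either genotype, with arrays in columns by group. Kcnd2 and Kcnf1 at the top are high on all 4 BG arrays, Kcnq3 and Kcna1 at the bottom on all 4 Ctx arrays, and Kcnv1 is low on the 2 BG +/- arrays alone.

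Partners of potassium channels that carry other names were read from a list of 38 genes, of which 26 could be tested. In BG -/- 2 rose, Ank3 at 0.92 ± 0.15 and Ank2 at 0.78 ± 0.15 (limma adjusted p = 0.0156 and 0.0277), and 1 fell, Hcn3 at -0.80 ± 0.19 (adjusted p = 0.0489), while 23 did not pass. Over all genes 4.76% rose and 3.05% fell there. Ank3 encodes ankyrin-G, which anchors Kcnq3-type channels at the axon initial segment, and Hcn3 a hyperpolarisation-activated cation channel. Ank3 was at 1884 and 2022 in BG -/-, against 912 and 1145 in BG +/-, and at 2266 and 2331 in Ctx -/-, against 2058 and 2225 in Ctx +/-. The list's median log2 change was 0.14 in BG and -0.09 in Ctx, where none of the 26 passed, beside 0.205% of all genes.

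Between regions, 8 of 26 partners were higher and 3 lower in BG in -/-, beside 11.4% and 7.25% of all genes. In +/-, 5 were higher and 7 lower, beside 14.0% and 10.7% of all genes. Dpp6, an auxiliary subunit of the A-type channel that Kcnd2 forms, was higher in BG in both, by 1.06 ± 0.14 and 1.29 ± 0.14 (limma adjusted p = 0.00502 and 0.00212). Its relative Dpp10 passed in -/-, with 146.5 and 151.5 in BG, against 15.2 and 34.3 in Ctx, a difference of 2.06 ± 0.22 (limma adjusted p = 0.00225). Cntn2, an axonal adhesion molecule that helps to cluster Kcna channels, was lower in BG in both, at -3.09 ± 0.17 and -3.49 ± 0.17 (limma adjusted p = 0.000250 and 0.000230). Its partner Cntnap2 was higher in BG in both, at 0.54 ± 0.11 and 0.87 ± 0.11 (limma adjusted p = 0.0206 and 0.00319). Abcc8, the sulfonylurea receptor that pairs with Kcnj11, was lower in BG in +/-, at -1.59 ± 0.34 (limma adjusted p = 0.0178).

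The 26 potassium channel genes left untested averaged 3.40 to 16.9 signal units over the 8 arrays, and no single array reached above 55.3. They were 8 inward rectifiers, 5 two-pore-domain channels, 5 silent subunits, 3 auxiliary subunits, 3 calcium-activated channels or beta subunits and 2 voltage-gated pores. A low signal here is a measured value and does not show that a gene is off. With no filter on low values none of the 26 passed for genotype in either region (limma), and Kcns1 alone passed between regions, higher in BG by 1.36 ± 0.17 in -/- and 0.84 ± 0.17 in +/- (adjusted p = 0.00658 and 0.0241).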

How the data were processed

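RNA of mouse basal ganglia and cortex was measured on 8 one-colour arrays. The authors deposited linear intensity values per probe set, already scaled (the trimmed mean, with 2% left out at each end, is 150.001 on every array as deposited) by a step whose software is not given in the sources used here. The files give no read depth, and 2 arrays per group limit the precision. Values were taken as log2(signal + 16), the 30% of probe sets with the lowest mean were left out, and limma 3.58.1 in R 4.3.3 was fitted to 4 group means over all 8 arrays, with 4 residual and 2.76 prior degrees of freedom. Benjamini-Hochberg adjustment ran across all 31526 remaining probe sets, and an adjusted p below 0.05 counted as a call. Of 45101 probe sets, 34945 carry 1 gene symbol in the platform annotation.

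Genes were named by rule: every one past the threshold for genotype or for the difference of the effects; the 10 with the largest change in each direction for each regional comparison; the smallest p of each family in each genotype comparison; those whose other probe sets passed in a genotype comparison where the main one did not or the opposite way; and the untested by count and range. Kcna6, Kcnj11, Kcnk1, Kcnma1, Kcnu1, Kcna2, Kcnh1 and Kcnip2 were added in some regional comparisons after their values were seen, as were further probe sets in regional comparisons and Kcnk10 in Ctx. The partners were planned as counts and a median alone. Those named with values lie outside the rule, and not every partner called between regions is named. The members and lists were chosen with earlier results of these data known. The fitting script was checked on simulated data. The alternatives were the offset, the filter, centring, quantile normalization, a replicate block, fits of the compared groups alone, a variance trend, the mean of all probe sets and leaving out each array. The mean of all probe sets took those of a gene that were past the filter, so a gene with 1 such probe set kept its value.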

Additional observations from a re-analysis of the deposited data

Results flagged for a closer look

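The effect of genotype on Kcnv1, an electrically silent subunit, differed between the regions by the test of the difference itself. Its log2 change of -/- over +/- was 1.46 in BG and 0.20 in Ctx, a difference of 1.26 ± 0.18 (limma adjusted p = 0.0471). The call was lost when any 1 of the 8 arrays was left out and under 7 of the 9 other alternatives run, and its value ranged from 0.39 to 1.93.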

How the results depend on the processing

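Counts past the threshold depended on the settings more than directions did. For genotype in BG, the potassium channel genes called numbered 4, and were 2 with arrays centred on their medians or an offset of 1, and 1 with the compared groups alone, the mean of all probe sets, no filter or the replicate block. They were 6 with a variance trend (3 rises, 3 falls), 6 with an offset of 64 (4 and 2) and 5 with the lowest 50% left out (3 and 2), against 3 and 1. The effect difference between regions had 1 call and had 0 with centring, the mean of all probe sets, no filter, an offset of 1 or 64, quantile normalization or the replicate block. BG against Ctx in +/- had 21 calls, and 11 with the compared groups alone. Over all probe sets, genotype in BG had 3070 calls, and 2001 with centring, 1024 with the compared groups alone, 5889 with a variance trend, 4786 with the lowest 50% left out, 1761 with no filter, 4969 with an offset of 64 and 2002 with the replicate block. Genotype in Ctx had 71, and 24 with the groups alone, 212 with the trend, 112 with the lowest 50% left out, 41 and 146 with offsets of 1 and 64, and 36 with the block. The effect difference had 181, and 53 with centring, 1816 with the trend, 1033 with the lowest 50% left out, 10 with no filter, 3 and 907 with offsets of 1 and 64, and 4 with the block. BG against Ctx in +/- had 7518, and 3466 with the groups alone. Leaving out 1 array gave, over all probe sets, 113 to 3415 calls for genotype in BG, 19 to 39 in Ctx, 3 to 4 for the effect difference, 1896 to 6592 for BG against Ctx in -/- and 3898 to 6948 in +/-. Among potassium channel genes it gave 1 to 4, 0 to 0, 0 to 0, 10 to 19 and 11 to 20 in the same order. Averaging all probe sets reversed Kcna6 to 0.29 and Kcnip1 to 0.21 in BG, and Kcnip1 ranged from -0.12 without BG -/- replicate 2 to 0.074 without BG -/- replicate 3. Causes were not tested. Centring turned the share of higher calls over all probe sets from a split of 3361 higher and 2077 lower to 1937 and 5384 for BG against Ctx in -/-, and from 3489 and 4029 to 2234 and 4829 in +/-. Same-numbered arrays did not deviate together, with correlations of -0.026 to 0.022 over 6 pairs, so the replicate block is given here alone. Of 56 named values, 815 recomputed ones kept direction and side of the threshold, 168 lost the threshold, 4 passed it and 3 reversed. Signals near the lowest 30% are limited by background.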
